A study of Drosophila melanogaster with 12 samples.

Results

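The genes described here are the bHLH repressors of the Enhancer of split complex, E(spl), and Kaz-m1, a gene that lies among them. They were chosen by gene symbol, as all probe sets annotated with 1 of 8 symbols alone; the rule uses no measured value, although the symbols were picked with earlier results of these data known. Of the 8 genes, 6 had a probe set under this rule, 1 each, among 18769 probe sets tested, which named 11982 genes. These were E(spl)mdelta-HLH (1634011_at), E(spl)mbeta-HLH (1639900_at), E(spl)m3-HLH (1623497_at), E(spl)m5-HLH (1639741_at), E(spl)m7-HLH (1625493_at) and Kaz-m1 (1639394_at). E(spl)mgamma-HLH and E(spl)m8-HLH were not analysed here.

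The E(spl) bHLH genes are textbook targets of the Notch receptor. When Notch is activated by a ligand on a neighbouring cell, its intracellular part joins the DNA-binding protein Su(H) and switches these genes on, and their products repress transcription together with the corepressor Groucho. In the somatic mesoderm of the fly embryo this lateral inhibition picks a single muscle progenitor from a cluster of cells that express the proneural gene l(1)sc, while the cells around it stay under Notch signalling and many become fusion-competent myoblasts. Kaz-m1 encodes a protein with a Kazal-type protease inhibitor domain and is no transcription factor.

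RNA came from sorted, GFP-positive Drosophila melanogaster cells at late stage 11 to early stage 12, and each of 12 arrays gave a log2 value per probe set. All embryos carried twi-gal4, which drives UAS transgenes in Twist-expressing cells, and UAS-GFP. The wild-type groups carried nothing further by the labels: wild type set 1 (rep1A to rep1C) and wild type set 2 (rep2A to rep2C). The Slou gain-of-function group added UAS-S59, which supplies the homeodomain factor Slou, and the Msh gain-of-function group added UAS-msh, which supplies the homeodomain factor Msh (gene symbol Dr). Each of the 4 groups has 3 arrays. Nothing in the labels says that these came from separate embryo collections, so a p-value here speaks only of the spread among these arrays, which may be technical. In such bulk samples, fewer expressing cells and less RNA per cell cannot be told apart.

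The deposited values fall into separately scaled parts, with array medians of 2.59 to 2.72 for wild type set 1 and Slou and 3.85 to 3.91 for wild type set 2 and Msh, so Slou was compared with set 1 and Msh with set 2. The slou probe set rose from 5.58 ± 0.12 to 11.07 ± 0.05 (SD, n = 3 each) in Slou. Dr fell there from 6.83 ± 0.09 to 4.04 ± 0.18 (limma adjusted p = 0.00569). In the arrays labelled Msh, slou fell from 6.49 ± 0.15 to 5.92 ± 0.03 (limma adjusted p = 0.0458). The Dr probe set read 9.03 ± 0.23 in wild type set 2 and 9.36 ± 0.02 in the arrays labelled Msh (SD, n = 3 each, limma adjusted p = 0.254), so a rise of Dr did not pass there and the Msh group rests on its label. Of the mesodermal markers twi, sna, zfh1, htl and bap, each had a group mean above a log2 value of 2 in all groups. That level lies below the median of every array, so passing it says little about which cells were sorted. Mef2, tin and how were not analysed here. Among the genes described, 5 of the 6 read above a log2 value of 8 on all arrays; their arrays differed little, with SDs within a group of 0.02 to 0.10, and Kaz-m1 had SDs of 0.02 to 0.14.

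E(spl)mdelta-HLH, a bHLH repressor at the end of the complex, was higher in both gain-of-function groups. Its deposited log2 values were 9.47, 9.49 and 9.51 in wild type set 1 and 10.24, 10.20 and 10.18 in Slou. They were 10.87, 10.91 and 10.86 in wild type set 2 and 11.28, 11.28 and 11.24 in Msh. In both comparisons all 3 gain-of-function arrays lay above all 3 wild-type arrays. E(spl)mdelta-HLH rose by a log2 change of 0.72 in Slou (SE 0.09, adjusted p = 0.0332 by limma), a fold of 1.64. In the arrays labelled Msh it rose by 0.39 (SE 0.07, limma adjusted p = 0.0433), a fold of 1.31. Among probe sets with a mean of 8 or more on the arrays compared, 1.63% had a change at least as high in Slou and 9.06% in Msh. Centring each array on its median ended both calls, with adjusted p = 0.0532 in Slou and 0.0533 in Msh.

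Kaz-m1 changed in opposite directions. Its values were 7.36, 7.28 and 7.29 in wild type set 1 and 8.28, 8.30 and 8.32 in Slou. In wild type set 2 they were 8.55, 8.53 and 8.43, and in Msh 7.65, 7.92 and 7.84. All Slou arrays were thus above their wild-type arrays and all Msh arrays below theirs. Kaz-m1 rose by 0.99 in Slou (SE 0.09, limma adjusted p = 0.0162), a fold of 1.98. It fell by 0.70 in the arrays labelled Msh (SE 0.10, limma adjusted p = 0.0300), which is 1.63-fold lower.

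**Figure D1:**
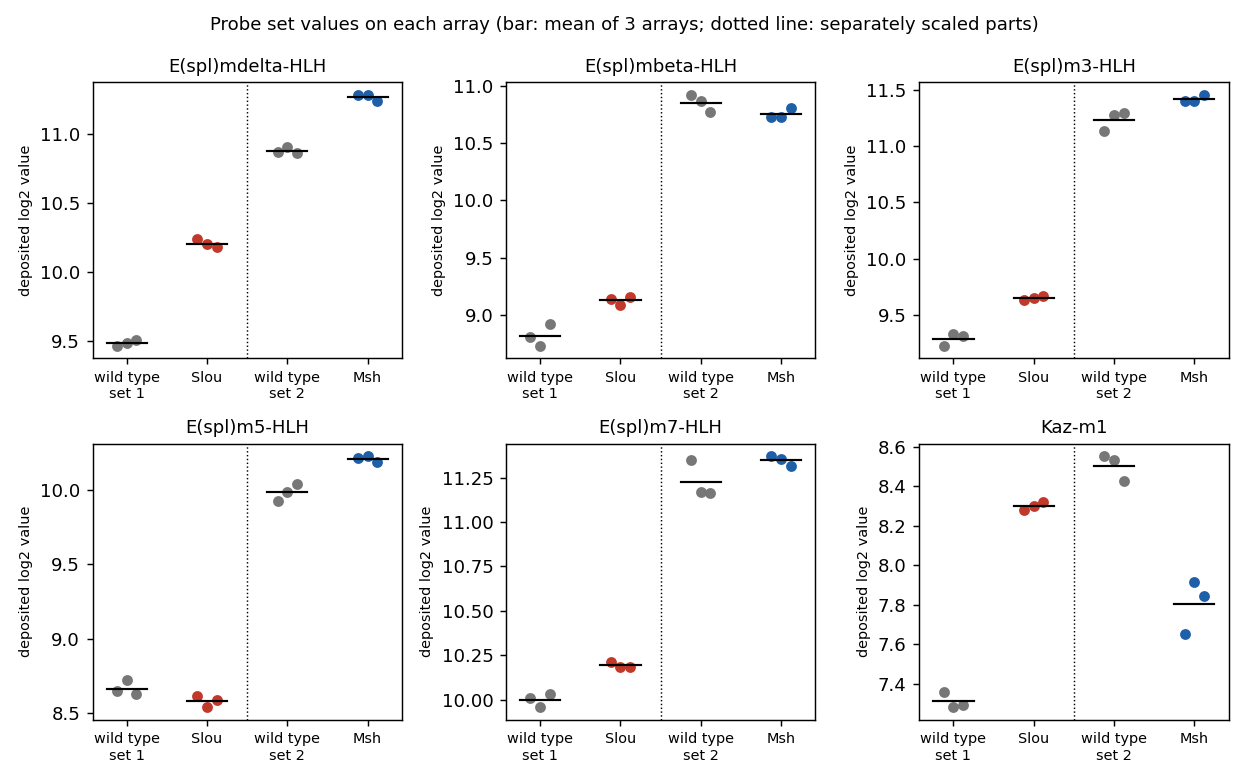
Deposited log2 values of the 6 measured genes on each of the 12 arrays (vertical axes; scales differ between panels), with points for arrays, bars for the means of 3 arrays and a dotted line between the separately scaled parts. E(spl)mdelta-HLH is higher in Slou and in Msh than in the wild-type set beside it, while Kaz-m1 is higher in Slou and lower in Msh.

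The other 4 repressors had smaller changes, and none passed in either comparison. E(spl)m3-HLH read 9.22, 9.33 and 9.31 in wild type set 1 and 9.63, 9.65 and 9.66 in Slou, a change of 0.36 (95% interval 0.12 to 0.60, adjusted p = 0.173). In wild type set 2 it read 11.14, 11.28 and 11.29 and in Msh 11.40, 11.40 and 11.46, a change of 0.18 (interval -0.03 to 0.39, adjusted p = 0.272). The groups did not overlap in either comparison, with the gain-of-function arrays higher.

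E(spl)mbeta-HLH read 8.80, 8.73 and 8.92 in wild type set 1 and 9.14, 9.08 and 9.16 in Slou, a change of 0.31 (interval 0.04 to 0.58, adjusted p = 0.272). In wild type set 2 it read 10.92, 10.87 and 10.78 and in Msh 10.73, 10.73 and 10.81, a change of -0.10 (interval -0.30 to 0.11, adjusted p = 0.541). The Slou arrays were all above wild type, whereas the Msh arrays overlapped it.

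E(spl)m7-HLH read 10.01, 9.96 and 10.03 in wild type set 1 and 10.21, 10.18 and 10.18 in Slou, a change of 0.19 (interval -0.04 to 0.43, adjusted p = 0.418). It read 11.35, 11.17 and 11.16 in wild type set 2 and 11.37, 11.36 and 11.31 in Msh, a change of 0.12 (interval -0.10 to 0.34, adjusted p = 0.490). The groups were apart in Slou and overlapped in Msh, where array A of wild type set 2 lay within the range of the Msh arrays.

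E(spl)m5-HLH was the repressor with the lowest change in Slou. It read 8.65, 8.72 and 8.63 in wild type set 1 and 8.62, 8.54 and 8.59 in Slou, a change of -0.08 (interval -0.33 to 0.16, adjusted p = 0.755). In wild type set 2 it read 9.93, 9.99 and 10.04 and in Msh 10.21, 10.23 and 10.19, a change of 0.22 (interval 0.04 to 0.41, adjusted p = 0.153). The Slou arrays lay just below wild type and the Msh arrays above it, in both cases without overlap.

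In Slou, 2 of the 6 genes passed, both higher, and 4 did not, where 2.31% of all probe sets passed (1.24% higher and 1.08% lower) and 4.51% of the bright ones, those with a mean of 8 or more. In Msh 1 passed higher and 1 lower, where 6.81% of all probe sets passed (2.86% higher and 3.95% lower) and 14.8% of the bright ones. The groups did not overlap for 6 of 6 genes in Slou and 4 of 6 in Msh. As many as 25.3% and 32.8% of all probe sets did so too, and 61.8% and 67.3% of the bright ones, and an exact permutation test of 3 arrays against 3 cannot give a p below 0.1. The median change of the 6 genes was 0.33 in Slou and 0.15 in Msh, beside -0.01 and 0.02 over all probe sets. The 5 repressors alone ranged from -0.08 to 0.72 in Slou and from -0.10 to 0.39 in Msh.

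These calls depend on how the spread is estimated. With an intensity trend in limma, which gives bright probe sets a smaller expected spread, 5 of the 6 genes passed as higher in Slou, all but E(spl)m5-HLH, where 12.7% of all probe sets and 48.9% of the bright ones passed. In Msh 4 then passed, E(spl)m3-HLH and E(spl)m5-HLH besides the former pair, where 19.3% of all and 53.6% of the bright ones passed. Without any 1 of the 6 arrays, none of the 6 genes passed in either comparison by limma, though the changes kept their sign. E(spl)mdelta-HLH stayed between 0.70 and 0.73 in Slou and 0.38 and 0.40 in Msh, and Kaz-m1 between 0.97 and 1.01 in Slou and -0.76 and -0.62 in Msh. Smaller changes moved more, such as that of E(spl)m7-HLH in Msh, which ran from 0.09 to 0.18, and that of E(spl)mbeta-HLH in Msh, from -0.14 to -0.06. At an unadjusted p under 0.05, 3 or 4 genes passed in Slou and 2 or 3 in Msh on leaving out an array.

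**Figure D2:**
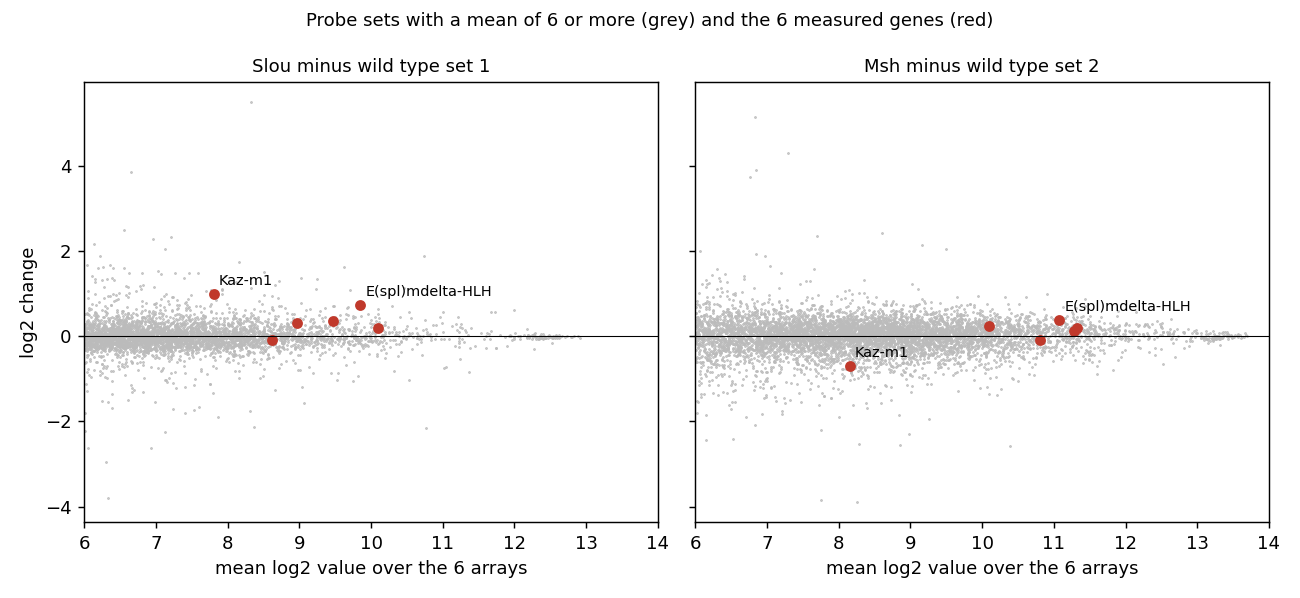
Change (vertical axis, log2) against the mean log2 value over the 6 arrays compared (horizontal axis), for Slou on the left and Msh on the right; grey points are all probe sets with a mean of 6 or more, red points the 6 measured genes. Kaz-m1 lies at 0.99 in Slou and -0.70 in Msh, and E(spl)mdelta-HLH at 0.72 and 0.39, with 1.63% of bright probe sets as high as the latter in Slou.

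The Slou change minus the Msh change was tested over all 12 arrays. Each change was taken within its own separately scaled part and against its own wild-type set. A difference between Slou and Msh therefore cannot be told apart from a difference between these parts. Kaz-m1 passed, with a difference of 1.69 (SE 0.12, limma adjusted p = 7.78e-05); 9.22% of all probe sets (4.76% higher and 4.46% lower) and 24.9% of the bright ones passed this test. Kaz-m1 passed under each of the 18 alternatives tried for the difference, with leave-one-out values of 1.61 to 1.75. Of these alternatives 12 left out 1 array, and the other wild-type set was not among them. None of the 5 repressors passed. E(spl)mbeta-HLH differed by 0.41 (interval 0.15 to 0.66, adjusted p = 0.0570), E(spl)mdelta-HLH by 0.33 (interval 0.13 to 0.53, adjusted p = 0.0521) and E(spl)m5-HLH by -0.31 (interval -0.53 to -0.09, adjusted p = 0.0911). For E(spl)m3-HLH the difference was 0.18 (interval -0.06 to 0.41) and for E(spl)m7-HLH 0.07 (interval -0.17 to 0.31), and both intervals include 0.

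**Figure D3:**
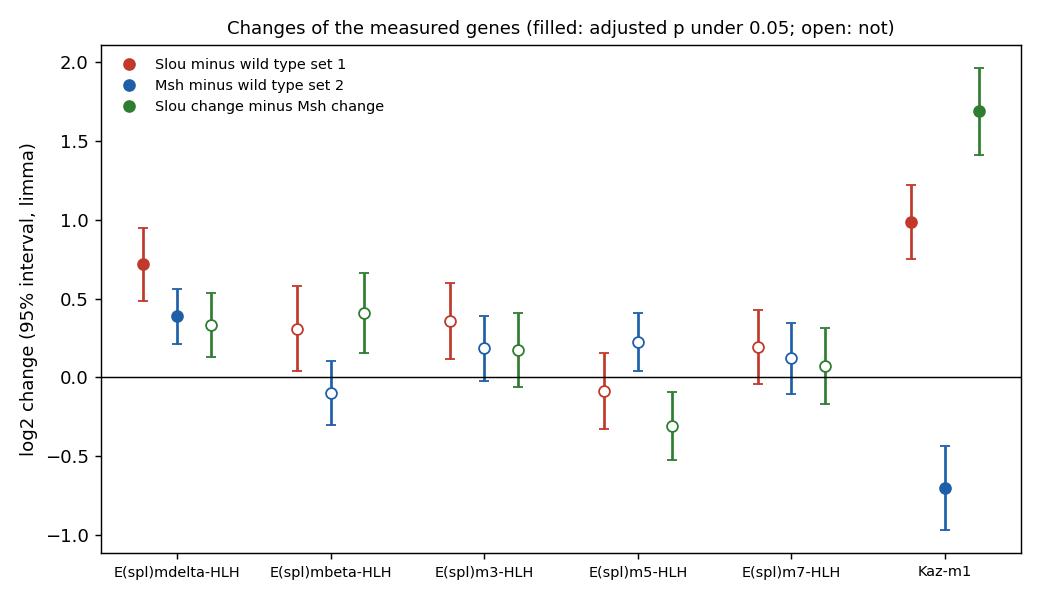
Log2 changes of the 6 measured genes with 95% intervals from limma, for Slou minus wild type set 1 (red), Msh minus wild type set 2 (blue) and the difference of these changes (green); filled points passed at an adjusted p under 0.05. The 3 Kaz-m1 points and the Slou and Msh points of E(spl)mdelta-HLH are filled.

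The wild-type sets themselves differed for these genes once all 12 arrays were quantile normalized together. Kaz-m1 was then lower in set 2 than in set 1 by 0.69 (SE 0.09, limma adjusted p = 0.00103), about the size of its fall in Msh. E(spl)m5-HLH was lower in set 2 by 0.50 (adjusted p = 0.00148), E(spl)m7-HLH by 0.47 (adjusted p = 0.00539) and E(spl)mdelta-HLH by 0.39 (adjusted p = 0.00347). In all, 4 of the 6 genes passed as lower in set 2, where 17.2% of all probe sets passed in either direction and 8.91% as lower. The share among bright probe sets, which passed more often than all in the tests above, was not taken here. E(spl)mbeta-HLH and E(spl)m3-HLH differed by 0.23 and 0.20 the other way and did not pass (adjusted p = 0.101 and 0.0961).

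On this common scale Kaz-m1 averaged 9.21 ± 0.02 in Slou, 8.25 ± 0.05 in set 1, 7.55 ± 0.08 in set 2 and 6.86 ± 0.13 in Msh (SD, n = 3 each), with neighbours in this order apart by more than their spread. E(spl)mdelta-HLH averaged 11.02 ± 0.02 in Slou, 10.38 ± 0.02 in set 1, 10.37 ± 0.04 in Msh and 9.99 ± 0.01 in set 2, and set 1 and Msh did not differ beyond their spread. Against the other wild-type set, Slou minus set 2 gave 1.66 for Kaz-m1 and 1.04 for E(spl)mdelta-HLH, both passing. Msh minus set 1 gave -1.39 for Kaz-m1, which passed, and -0.00242 for E(spl)mdelta-HLH (adjusted p = 0.986), so the rise of E(spl)mdelta-HLH in Msh was seen only against set 2. In these crossed comparisons 4 of the 6 genes passed in each, where 19.9% of all probe sets passed for Slou and 22.5% for Msh. Shares among bright probe sets were not taken for them either. The crossed comparisons span the separately scaled parts, whose offset quantile normalization need not remove.

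**Figure D4:**
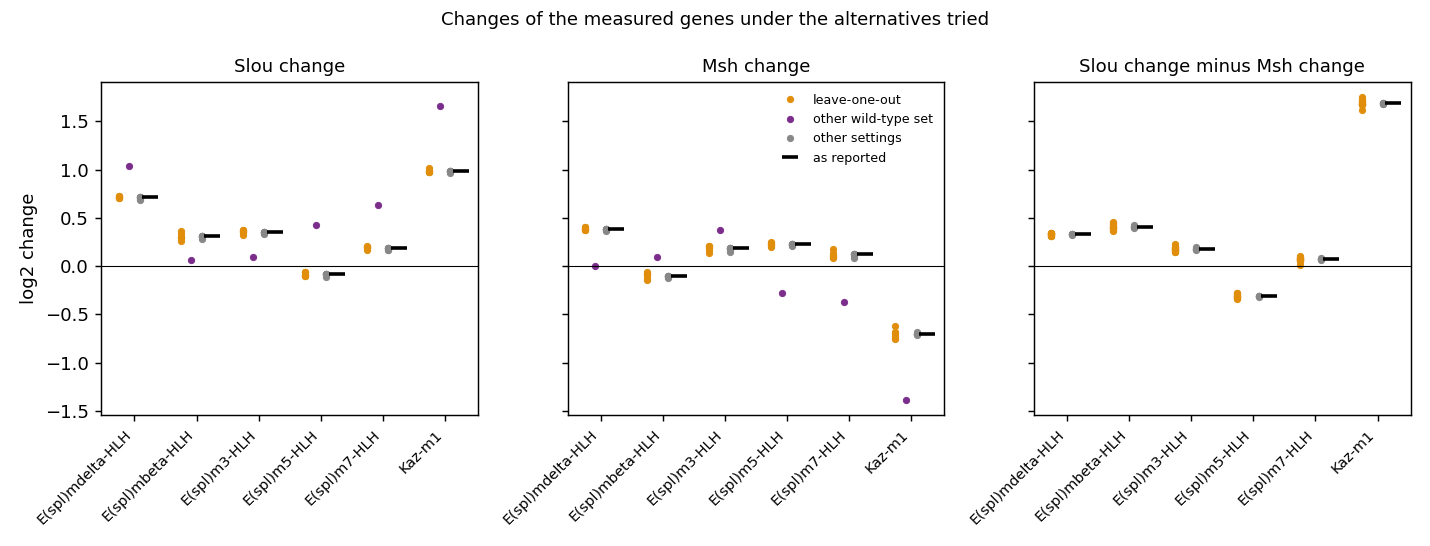
Log2 changes of the 6 measured genes under each alternative (points) beside the value as reported (black dash), for the Slou change, the Msh change and their difference. Leave-one-out values (orange) and other settings (grey) keep the sign of the reported values. Values against the other wild-type set (purple) move, to 1.66 for Kaz-m1 in Slou and to -0.00242 for E(spl)mdelta-HLH in Msh, and were not taken for the difference.

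The 6 genes sit in a run of 13 protein-coding genes on chromosome arm 3R, in the gene order of RefSeq's annotation of Release 6. The run goes from E(spl)mdelta-HLH to gro, the gene of the corepressor Groucho, and 4 of the genes between belong to the Bearded family, small proteins that antagonize the ubiquitin ligase Neuralized. The changes of direct neighbours stand side by side here, with no test between genes. Kaz-m1 rose by 0.99 in Slou, between E(spl)malpha-BFM at 0.30 (SE 0.10, adjusted p = 0.263) and E(spl)m2-BFM at 0.34 (SE 0.09, adjusted p = 0.186). In Msh, where Kaz-m1 fell by 0.70, these neighbours were at 0.17 (SE 0.08) and -0.08 (SE 0.08), and neither passed. The dim probe set of E(spl)m6-BFM (mean 4.12 in wild type set 1) had the same directions as Kaz-m1, with a change of 0.50 in Slou (SE 0.17, adjusted p = 0.278) and a change of -0.58 in Msh that passed (SE 0.10, adjusted p = 0.0381), though against wild type set 1 the latter was -0.13 and did not pass. gro read 7.64, 7.69 and 7.51 in wild type set 1 and 7.65, 7.50 and 7.58 in Slou (change -0.04, adjusted p = 0.923). It read 9.48, 9.46 and 9.50 in wild type set 2 and 9.83, 9.81 and 9.78 in Msh, 0.32 higher (SE 0.07, adjusted p = 0.0625), short of the threshold.

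**Figure D5:**
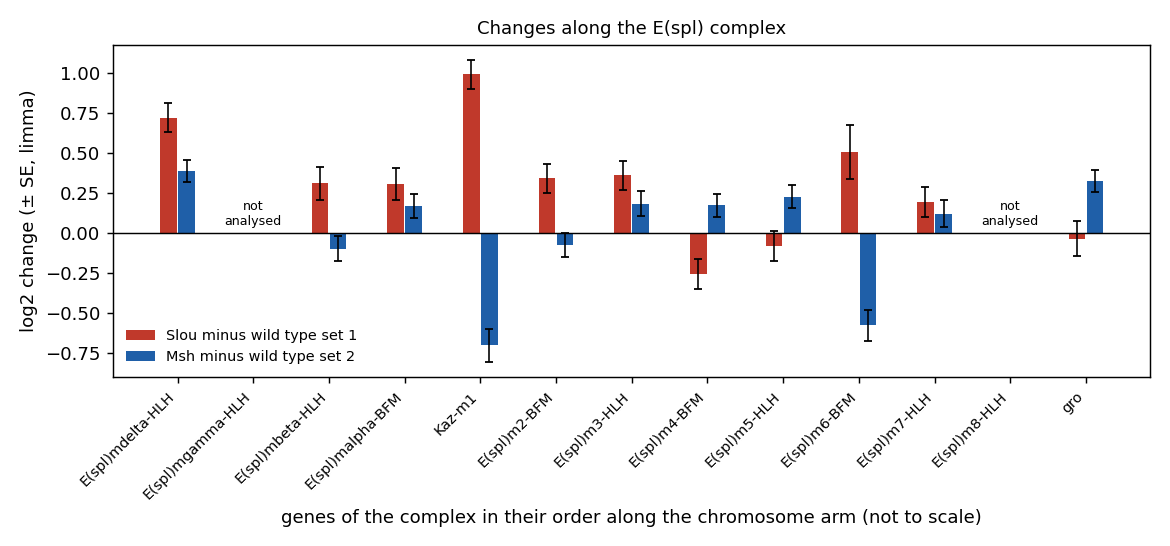
Log2 changes (bars; whiskers are limma standard errors) in Slou (red) and Msh (blue) for the genes of the complex in their order along the chromosome arm, not to scale. Kaz-m1 has the highest Slou bar and the lowest Msh bar, and E(spl)m6-BFM has the same directions with a change of 0.50 in Slou that did not pass.

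Bearded family genes were measured for 8 of 9 genes. In Slou, where 2.31% of all probe sets and 4.51% of the bright ones passed, 4 fell and 4 did not pass (median -0.49). All 4 that fell lie outside the E(spl) complex: BobA, Ocho, Brd and Tom, by 0.87 (SE 0.10), 0.86 (SE 0.10), 0.86 (SE 0.10) and 0.73 (SE 0.09). Brd read 9.89, 9.84 and 9.90 in wild type set 1 against 9.09, 9.03 and 8.93 in Slou. The 4 Bearded family genes inside the complex ranged from -0.25 for E(spl)m4-BFM to 0.50 and none of them passed. In Msh Brd rose by 0.44 (SE 0.07, adjusted p = 0.0347) and E(spl)m6-BFM fell, with a median of 0.05 over the 8. Of all probe sets 6.81% passed in Msh, and 14.8% of the bright ones. Of the calls for this family in Slou and Msh, 0 were kept when any 1 array was left out. With an intensity trend 7 of the 8 passed in Slou, 2 higher and 5 lower, where 12.7% of all probe sets and 48.9% of the bright ones passed. Against the other wild-type set the change of Brd was -0.14 in Slou (adjusted p = 0.273), which ended the call, and -0.21 in Msh, while BobA, Ocho and Tom kept their calls in Slou.

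Of 26 other genes of the Notch pathway, 18 were measured; the receptor N, its ligands Dl and Ser, Su(H), mib1, nct, aph-1 and sca were not analysed here. In Slou 0 of 18 passed by limma (median 0.03), with 5 at an unadjusted p under 0.05. With an intensity trend 3 passed there as higher and 4 as lower, where 12.7% of all probe sets and 48.9% of the bright ones passed. In Msh, where 6.81% of all probe sets and 14.8% of the bright ones passed, 2 rose and 16 did not pass (median 0.28, beside 0.02 over all probe sets). They were numb, a Notch inhibitor handed to a single daughter cell at asymmetric divisions, by 0.58 (SE 0.07, adjusted p = 0.0213) and phyl, a ubiquitin ligase adaptor of sensory organ development, by 0.54 (SE 0.07, adjusted p = 0.0216). In Msh 3 of the 18 passed without wild type set 2 replicate A and 0 without any other array. With an intensity trend 12 passed there, 11 of them higher, where 19.3% of all probe sets and 53.6% of the bright ones passed. kuz, the metalloprotease that cleaves Notch, had changes of 0.67 in Slou (SE 0.12, adjusted p = 0.0691) and 0.78 in Msh (SE 0.17, adjusted p = 0.0707). neur, the ubiquitin ligase that acts on Delta, had changes of -0.04 and 0.33 (adjusted p = 0.888 and 0.300).

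Relatives of the E(spl) repressors with a bHLH and an Orange domain were measured for 4 of 6 genes. cwo, a clock repressor, rose by 0.73 in Slou (SE 0.09, adjusted p = 0.0338) and had a change of -0.17 in Msh (adjusted p = 0.297). Its call in Slou was lost with any 1 array left out and with median centring (adjusted p = 0.0568). Hey, another Notch target, had changes of -0.87 (SE 0.20, adjusted p = 0.132) and -0.12 (adjusted p = 0.677), and dpn, a neuroblast factor, had 0.04 and -0.05. Sidpn was dim, with a wild-type mean of 1.47 in set 1, and did not pass.

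All 12 proneural and progenitor bHLH genes were measured, among them l(1)sc, which marks the mesodermal clusters that lateral inhibition narrows. The probe sets of amos and cato were dim, with means of 2.19 and 1.93 in wild type set 1. Neither passed in Slou or Msh, but their changes enter the medians given here. In Slou, where 2.31% of all probe sets and 4.51% of the bright ones passed, 2 fell and 10 did not pass (median -0.41). Those that fell were nau, the fly MyoD relative, by 1.63 (SE 0.14), and tap, a neuronal factor, by 1.22 (SE 0.09). l(1)sc read 6.95, 6.91 and 6.81 in wild type set 1 and 6.59, 6.56 and 6.34 in Slou, a change of -0.40 that did not pass (adjusted p = 0.234). In Msh, where 6.81% of all probe sets and 14.8% of the bright ones passed, 5 rose, 1 fell and 6 did not pass (median 0.58). l(1)sc rose by 0.62 (SE 0.08), from 7.86, 8.01 and 7.99 to 8.61, 8.54 and 8.56. The proneural genes sc, ac and ase rose by 0.75 (SE 0.09), 0.59 (SE 0.08) and 0.58 (SE 0.07), and twi, the mesodermal factor whose driver was used, by 0.91 (SE 0.15). nau fell by 0.43 (SE 0.08). With an intensity trend 6 of the 12 passed in Slou, 1 higher and 5 lower, where 12.7% of all probe sets and 48.9% of the bright ones passed. With 12 arrays in the fit 7 passed in Slou, 1 higher and 6 lower, where 1591 of all 18769 probe sets passed. Both calls in Slou were lost when any 1 array was left out; in Msh ac, ase, l(1)sc and twi kept their calls without wild type set 2 replicate A, where sc and nau lost theirs, and 0 of the 12 genes passed without any other array. Against wild type set 1 the Msh changes of l(1)sc and twi became -0.21 and 0.02.

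E(spl) genes are also active in the neural and epidermal primordia, so the levels of markers of other tissues are given beside these results. By limma, 2.31% of all probe sets and 4.51% of the bright ones passed in Slou. In Msh these shares were 6.81% and 14.8%. Of 9 measured neural markers 2 fell in Slou and 0 rose by limma, with 7 at an unadjusted p under 0.05 (median change -0.66). Their summed level (log2 of the sum of linear values) went from 10.32 to 10.42 in wild type set 1 down to 9.59 to 9.73 in Slou. In Msh 2 neural markers rose and 1 fell by limma, with 6 at an unadjusted p under 0.05 (median change 0.22). Summed levels were 12.58 to 12.75 in wild type set 2 and 12.84 to 12.87 in Msh. Of 5 epidermal markers 3 rose in Msh by limma and 4 reached an unadjusted p under 0.05. Their summed levels were 10.83 to 11.15 in set 2 and 11.59 to 11.67 in Msh. In Slou 0 epidermal markers passed by limma and 1 reached an unadjusted p under 0.05, at 8.38 to 8.47 in set 1 and 8.12 to 8.24 in Slou. Of 9 hemocyte markers 1 rose and 3 fell in Slou by limma (6 at an unadjusted p under 0.05) and 0 rose and 4 fell in Msh (5 at that level). Their summed levels were 11.64 to 11.70 in set 1, 11.44 to 11.52 in Slou, 13.20 to 13.30 in set 2 and 12.81 to 12.88 in Msh. Of the 5 mesodermal markers 0 passed in Slou by limma (3 at an unadjusted p under 0.05) and twi alone rose in Msh (3 at that level). Their summed levels were 10.18 to 10.23 in set 1, 10.37 to 10.42 in Slou, 11.58 to 11.69 in set 2 and 11.87 to 11.90 in Msh. Of 3 markers of trachea and gut 0 passed in Slou by limma (2 at an unadjusted p under 0.05) and 1 rose in Msh (2 at that level). Of all 18769 probe sets, 2825 reached an unadjusted p under 0.05 by limma in Slou and 4275 in Msh. The share among bright probe sets was not taken at that level. No neural or epidermal marker averaged under a log2 value of 2 in any group. Control readings of array quality also went with the groups. The difference between 3' and 5' Act5C control probe sets was 2.12 to 2.31 on the Msh arrays and 1.40 to 1.49 on the other 9. The mean of the poly-A control probe sets was 6.62 to 6.71 in set 1 and 5.90 to 6.08 in Slou. It was 10.41 to 11.22 in set 2 and 8.91 to 9.19 in Msh, so it was lower in each gain-of-function group than in its wild-type set. The part of these marker and control differences in the E(spl) results was not tested.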

How the data were processed

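The authors deposited log2 values, 1 per probe set and array; per the labels they used the R package affy, and the version, background correction and summary method are not given in the sources used here. No source names the log base, which was taken from the range of the table. Of 18952 probe sets 183 controls were left out. Genes were named from the array annotation, with symbols updated through RefSeq for 13544 of the 13647 naming a single gene; the 402 naming several genes and the 4720 naming no gene were tested unnamed. Probe sets were fitted with limma 3.58.1 in R 4.3.3 (lmFit and eBayes), with Benjamini-Hochberg adjustment over all 18769 at 0.05: each gain-of-function group with its own wild-type set in a fit of 6 arrays, and the difference of changes in a fit of 12. SEs and intervals are limma's moderated ones; SDs are between arrays. The number of arrays limits the precision. For lists, a gene is its brightest probe set. Alternatives were an intensity trend, 12 arrays, quantile and median scaling, filters on dim values, the replicate letter as a block, the other wild-type set and leaving out each array. The fits were tested on simulated data, where recovery was required only for changes larger than those of the E(spl) repressors and Kaz-m1. The genes named are all probe sets of the 8 symbols, list genes that passed and at most 4 others of a list, gro, slou, Dr and the 5 genes with the most similar profile. The genes, lists and tests were chosen with earlier results of these data known.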

Additional observations from a re-analysis of the deposited data

Results flagged for a closer look

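The change in Slou differed from the change in Msh, by limma's test of that difference, for 21 genes named here. In this test 9.22% of all probe sets and 24.9% of the bright ones passed. Not passing were 5 of the 6 genes, gro, 1 of 8 Bearded family genes and 12 of 18 Notch pathway genes. Nor did 3 of 4 other bHLH-Orange genes and 6 of 12 proneural and progenitor genes. The value given is the Slou change minus the Msh change on the log2 scale. It cannot be told apart from a difference between the separately scaled parts and their wild-type sets. Kaz-m1 had the difference of 1.69. In the Bearded family, E(spl)m6-BFM (1.08) and E(spl)m2-BFM (0.41) had a higher change in Slou, and Brd (-1.29), BobA (-0.88), Tom (-0.83), Ocho (-0.74) and E(spl)m4-BFM (-0.43) a lower one. Against the other wild-type set Brd changed by -0.14 in Slou and -0.21 in Msh, while BobA, Ocho and Tom kept their calls in Slou. The Msh change of l(1)sc, a bHLH factor listed below, was then -0.21. Among Notch pathway genes, O-fut1, a fucosyltransferase of Notch, differed by 0.58, rumi, a glucosyltransferase of Notch, by -1.07, phyl by -0.89, numb by -0.79, insc, a gene of asymmetric division, by -0.73 and spdo, a membrane protein that numb acts on, by -0.69. Among bHLH factors, cwo differed by 0.90, tap by -1.66, ac by -1.31, nau by -1.21, l(1)sc by -1.01, ase by -0.85 and emc, an inhibitor of proneural factors, by -0.53. Groups of 3 arrays are too small for a test of single arrays that stand apart.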

How the results depend on the processing

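All probe sets passing numbered 434 in Slou, 1278 in Msh and 1730 for their difference. With an intensity trend these became 2380, 3621 and 2944, with a mean of 2 or more required 1497, 2592 and 2702, and with values below 2 set to 2 they became 1070 in Slou and 1995 in Msh. In a fit of 12 arrays Slou gave 1591, and against the other wild-type set the counts were 3742 and 4220. Leaving out an array gave 0 to 49, 16 to 602 and 1036 to 1412; Slou fell to 0 without wild type set 1 replicate C (2436 at an unadjusted p under 0.05 by limma). Of the 6 genes, 2 passed in Slou, 2 in Msh and 1 for the difference. These became 5, 4 and 4 with a trend. With median centring they became 1 and 1 (Slou, Msh), where 347 and 1096 of all probe sets passed. In Slou 4 passed with 12 arrays and 4 with a mean of 2 or more, and for the difference 4 with that filter and 4 with the floor. The counts over all probe sets beside these are given above, except that for the difference with the floor. The filter tested fewer probe sets, and shares among bright ones were not taken for these settings. Against the other wild-type set 4 passed in each comparison. Leaving out an array gave 0 in Slou, 0 in Msh and 1 to 2 for the difference, the 2 without wild type set 1 replicate C, where E(spl)mbeta-HLH passed too. With the replicate letter as a replicate block, 0 probe sets passed in Slou and 0 in Msh (2105 and 3479 at an unadjusted p under 0.05 by limma), 0 of the 6 genes in either, and 1107 probe sets for the difference, Kaz-m1 among them. The letters were not taken to pair the arrays: deviations of same-letter arrays correlated by -0.0143 to 0.0304 over all probe sets, and over those with a mean of 8 or more by -0.245 to -0.0478 in Slou and 0.0863 to 0.433 in Msh, and 2 of 6 arrays in Slou and 3 of 6 in Msh matched their own letter best. Signs turned only against the other wild-type set: in Slou for E(spl)m5-HLH (0.42), and in Msh for E(spl)mdelta-HLH (-0.00242), E(spl)mbeta-HLH (0.10), E(spl)m5-HLH (-0.28), E(spl)m7-HLH (-0.37), Brd (-0.21) and l(1)sc (-0.21); the cause was not tested. Each gene had 1 probe set, so choosing the brightest changes nothing.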

Other observations

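Among 1999 bright probe sets with 1 gene, those whose profile was most like the mean of the 5 E(spl) repressors over the 12 arrays, each part centred on its own mean, were those of GILT3 (Pearson r = 0.992), Cdep (0.985), CG2991 (0.984), CG12885 (0.981) and rst (0.980). The arrays fall into 4 groups, so these values mostly follow the group differences. These genes were picked on the same arrays by likeness to a profile that is higher in both gain-of-function groups. That their changes are positive follows from this choice. GILT3, of the family of lysosomal thiol reductases, rose by 1.30 in Slou (SE 0.09) and by 0.66 in Msh (SE 0.07). Cdep rose by 0.89 (SE 0.09) and 0.38 (SE 0.07), and CG12885 by 0.92 (SE 0.13) and 0.56 (SE 0.07). rst, an adhesion receptor of myoblast fusion, had changes of 0.29 (SE 0.09, adjusted p = 0.247) and 0.12 (SE 0.07, adjusted p = 0.394), and CG2991 had 0.51 (adjusted p = 0.0951) and 0.34 (adjusted p = 0.0608); neither passed. All adjusted p-values are limma's.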
